A study of Mus musculus with 3 samples.

Results

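The EGF family was followed here through 10 mouse genes: 6 ligand genes (Areg, Ereg, Hbegf, Btc, Tgfa and Nrg1), 3 receptor genes (Egfr, Erbb2 and Erbb3) and Errfi1, a gene for a protein that inhibits these receptors. The genes were selected on earlier results from the same log2 levels and ratios of these arrays, so their values are given as a description and without a test. All non-control probes whose accession belonged to one of them were used, which gave 21 probes among the 26909 probes, of 18348 genes, that could be named. Each value below comes from 1 array, since there was 1 array per group.

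The RNA came from C2C12, an established line of mouse myoblasts, the precursor cells that fuse into multinucleate myotubes at low serum. The first group was untreated myoblasts, whose growth medium is not given in the sources used here. The second group, called BIO cellulates here, came from myotubes. To obtain them, C2C12 cells spent 8 days in DMEM with 2% horse serum, and AraC, a DNA synthesis inhibitor used here against unfused cells, was present at 10 µM from day 2 to day 4. Myoseverin, a microtubule-binding compound, then split the myotubes into cells, and BIO, a GSK-3 inhibitor, was given for 2 days from 24 h after it. The third group, called neurogenic cellulates here, was made the same way and then kept for 7 days in neural induction medium (DMEM/F12 with N2). Per the treatment protocol it received 250 nM reversine for 48 h and 1.5 µM retinoic acid. The stated doses conflict: BIO is 2.5 µM in the sample titles and 10 µM in the protocol, and the series text gives 20 µM myoseverin for 48 h where the protocol gives 30 µM. With no array of plain myotubes or of cellulates without BIO among those analysed here, differentiation, AraC, myoseverin and BIO cannot be told apart in the first comparison, nor reversine, retinoic acid, medium and time in the second.

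EGF family ligands are made as membrane-anchored precursors and are cut free by metalloproteases of the ADAM family. Areg, Tgfa, Ereg, Btc and Hbegf products bind the EGF receptor, while neuregulins such as Nrg1 bind ERBB3 and ERBB4. The receptors signal as pairs: ERBB2 binds no known ligand and ERBB3 has a weak kinase, so the pair of both relies on the ligand site of one and the kinase of the other. Downstream, the RAS-ERK cascade induces immediate early genes and its own inhibitors, among them the Sprouty and DUSP proteins and ERRFI1 (MIG6), which binds the receptor kinase. In muscle, EGF receptor signalling is known from dividing myoblasts, and neuregulin with ERBB3 from differentiating muscle and from Schwann cells of its nerves.

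Levels are given as log2 of the processed intensity over the 75th percentile of non-control spots on the same array, so 0 is that percentile. A probe was measured on an array when the scanner software flagged most of its spots as well above background, and is called dim otherwise. Between 45.7% and 50.7% of spots were well above background, and the lowest such levels were -3.73 in myoblasts, -2.72 in BIO cellulates and -2.57 in neurogenic cellulates. A weak probe therefore counts as measured more easily on the myoblast array, and the median log2 ratio of BIO cellulates over myoblasts was 1.01 among genes that were dim in both. Where a probe was dim on 1 of the 2 arrays, the fold is a lower bound against the higher of its own level and the lowest level well above background. The only repeat measure was of probes spotted 10 times within an array. They put the 95% interval for a ratio of single spots at 1.41-fold between myoblasts and BIO cellulates, at 1.34-fold between the cellulates and at 1.36-fold between myoblasts and neurogenic cellulates. For probes dimmer than a log2 level of -1 on both arrays, where most of the family lies, the widths were 1.60-fold, 1.56-fold and 1.54-fold. These widths hold no spread between cultures. Probes differ in how well they bind, so no gene's level is set against another's.

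The arrays carried the muscle label of their cells: 8 of 8 skeletal muscle markers were measured on each array, and their summed level was 88.3, 2116 and 1785 times the 75th percentile in myoblasts, BIO cellulates and neurogenic cellulates. Acta1 and Tnnt3 had the highest log2 levels in BIO cellulates, 10.1 and 9.67. Of the 8, 5 were at least 2-fold higher there than in myoblasts, against 11.2% of all genes. Myod1, Myog and Mef2c were 1.29-fold, 1.24-fold and 1.94-fold higher. Of 4 proliferation markers 3, 3 and 4 were measured, with summed levels of 60.0, 7.36 and 7.86. In neurogenic cellulates against myoblasts 3 of them were at least 2-fold lower and 1, Top2a, at least 2.46-fold higher. Top2a was dim in myoblasts, and its neurogenic level of -2.43 lay close to the lowest called well above background, -2.57. Mki67, 4.48-fold lower by its brightest probe, had a measured log2 ratio of 2.11 by its second, which was dim in myoblasts. Of 6 fibroblast markers 5 were measured on each array, with summed levels of 2189, 1762 and 1475, and Pdgfra was dim throughout. They moved in both directions against myoblasts. Postn was 3.52-fold lower in BIO cellulates and 19.6-fold lower in neurogenic cellulates, and Col1a1 2.38-fold and 3.25-fold lower. Col3a1 was 2.14-fold and 2.64-fold higher, and Thy1 1.77-fold and 1.60-fold higher. Of 6 epithelial markers 3, 3 and 4 were measured, with summed levels of 31.2, 19.6 and 20.0, and the defining genes Epcam and Cdh1 were dim on all 3 arrays. Krt18 was measured in neurogenic cellulates alone, at least 7.28-fold above myoblasts and at least 3.74-fold above BIO cellulates. Of 6 Schwann cell or glial markers 5, 4 and 4 were measured, with summed levels of 2.02, 2.07 and 1.78. Of 7 neuronal markers 3, 4 and 4 were measured, with summed levels of 10.8, 6.27 and 6.01, and Snap25 and Syp were dim on all 3 arrays. The neuronal markers did not run one way: Nefm was measured in neurogenic cellulates alone, at least 4.60-fold above myoblasts, Dcx in BIO cellulates alone, at least 3.82-fold above myoblasts, and Map2 was lower than in myoblasts, with log2 ratios of -2.07 in BIO cellulates and -1.21 in neurogenic cellulates. Of 4 macrophage markers 1 was measured, with summed levels between 0.853 and 1.18, and Ptprc was dim throughout.

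Myoblasts showed measurable RNA of 8 of the 10 genes, and both kinds of cellulate of 5. Of all non-control spots 50.7%, 46.9% and 45.7% were well above background in myoblasts, BIO cellulates and neurogenic cellulates. These are shares of spots and not of genes. By gene, 11184 of 18348 were measured by the brightest probe in both myoblasts and BIO cellulates, and 5451 in neither. Of the 10 members these were 5 and 2. Tgfa, Egfr, Erbb2, Erbb3 and Errfi1 were measured on all 3 arrays, Areg, Hbegf and Nrg1 in myoblasts alone, and Ereg and Btc on none. The lowest level well above background was lower on the myoblast array, at -3.73 against -2.72 and -2.57. Nrg1 was counted there at -3.20, below its dim cellulate values of -2.99 and -3.00. In BIO cellulates against myoblasts 8 of the 10 could be compared. Areg, Hbegf and Errfi1 were at least 2-fold lower, against 5.99% of all genes compared. Erbb3 was at least 2-fold higher, against 11.2% of all genes. Areg, Hbegf and Nrg1 entered this comparison through the myoblast array alone, so they could come out only lower or without a fold. Of the 5 members measured on both arrays 1, Errfi1, was at least 2-fold lower, against 686 of 11184 genes. In neurogenic against BIO cellulates 5 could be compared and 0 passed 2-fold in either direction by the brightest probe, against 4.14% of all genes higher and 1.80% lower. In neurogenic cellulates against myoblasts Erbb3 was at least 2-fold higher, against 12.1% of all genes, and Areg at least 2-fold lower, against 10.0%. Here too Areg, dim in the cellulates, could come out only lower or without a fold. The split depended on the scaling: with each array scaled to its median, 0 members were at least 2-fold higher and 4 lower in BIO cellulates than in myoblasts, and of all genes 369 were higher and 3697 lower, against 1440 and 769 as reported. The last comparison shares an array with each of the others and adds no independent measurement.

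**Figure D1:**
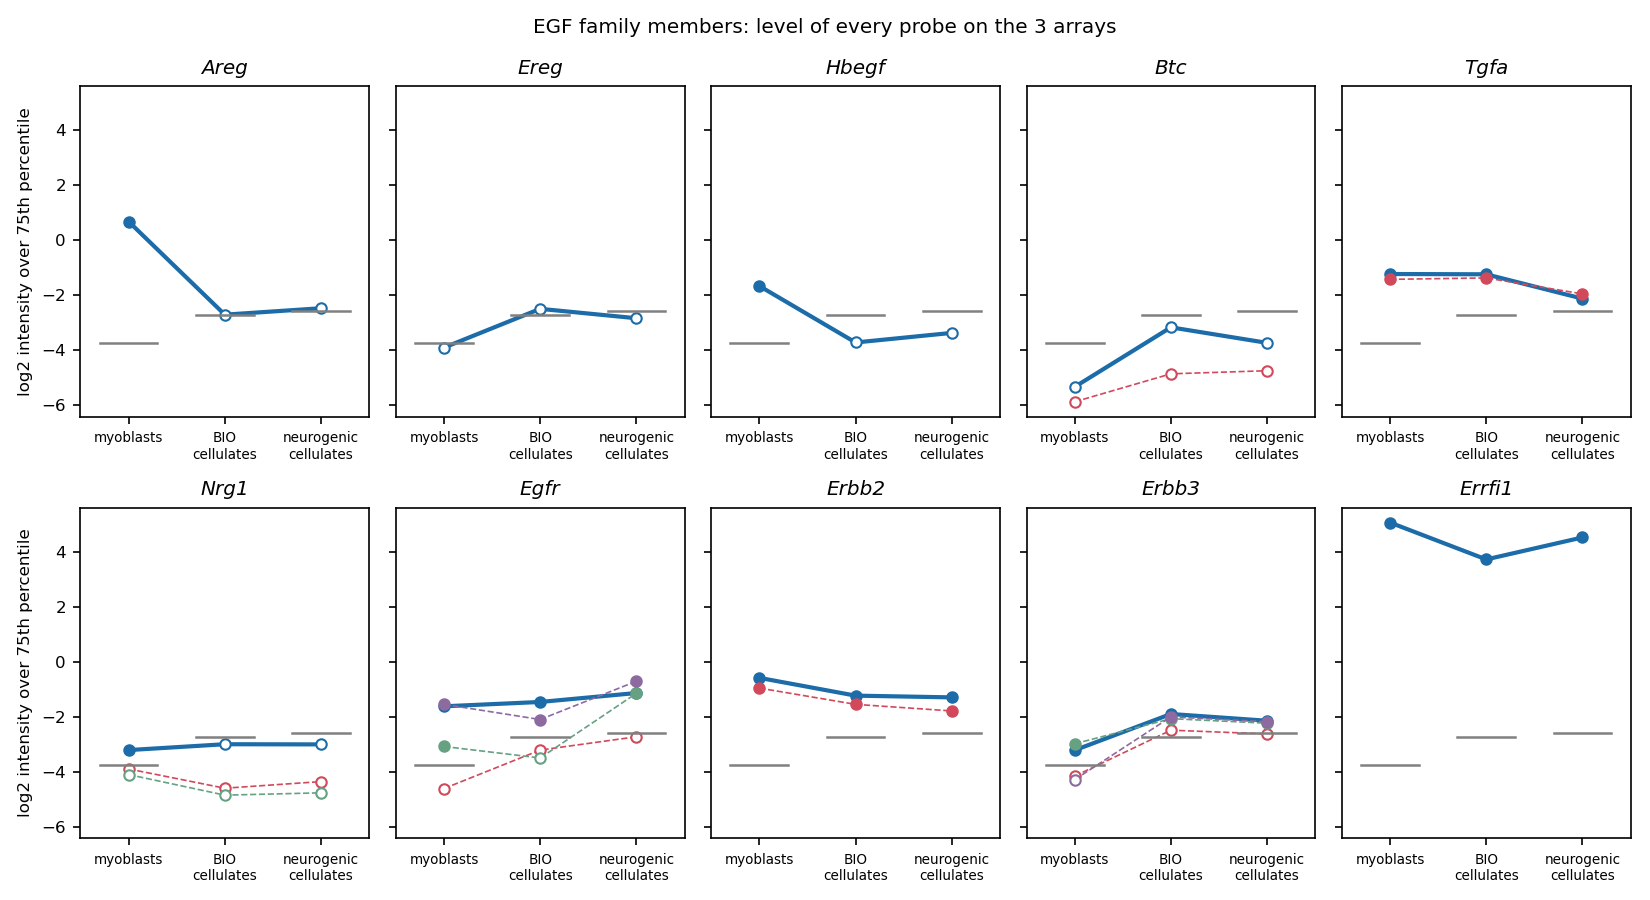
Level of every probe of the 10 genes on the 3 arrays, as log2 intensity over the array's 75th percentile. Filled points are well above background and open points are dim, the thick line is the probe with the highest mean, dashed lines are other probes, and grey bars mark the lowest level well above background on each array. Areg and Hbegf are filled in myoblasts alone, Ereg and Btc are open throughout, and the probes of Egfr run differently from one another.

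Among the ligands compared, Areg gave the largest difference. It encodes amphiregulin, a heparin-binding ligand of the EGF receptor. Its 1 probe had a processed intensity of 292 units in myoblasts, 17.7 in BIO cellulates and 28.2 in neurogenic cellulates, or log2 levels of 0.69, -2.70 and -2.46. Only the myoblast spot was well above background, and both cellulate values lay close to the lowest levels called so, -2.72 and -2.57. Relative to myoblasts, Areg was therefore lower by at least 10.5-fold in BIO cellulates and by at least 8.90-fold in neurogenic cellulates, beyond the spread of repeat spots. In bulk RNA, fewer cells with the transcript and less of it per cell cannot be told apart. After normexp correction the bounds were smaller, -1.65 and -1.61 on the log2 scale, and with spike-in scaling that of neurogenic cellulates was -2.58. The summed level of proliferation markers was also lower in both cellulates, though Top2a was higher in neurogenic cellulates by a level near background. The part of these markers in the Areg difference was not tested.

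The promoters of Areg and Errfi1 are shown because they are a ligand gene and the inhibitor gene that were lower in BIO cellulates, and because both held a full cAMP response element. That element, bound by CREB and ATF factors, reads TGACGTCA on either strand. The sequences are the 250 bases before the annotated start in RefSeq, build GRCm38.p6, at chr5:91139349-91139598 on the plus strand for Areg and at chr4:150854820-150855069 on the plus strand for Errfi1. Capitals mark the TATA box letters TATAAA. They also mark the short form of the element, TGACG on either strand, 2 of which overlap to make the full one.
Areg: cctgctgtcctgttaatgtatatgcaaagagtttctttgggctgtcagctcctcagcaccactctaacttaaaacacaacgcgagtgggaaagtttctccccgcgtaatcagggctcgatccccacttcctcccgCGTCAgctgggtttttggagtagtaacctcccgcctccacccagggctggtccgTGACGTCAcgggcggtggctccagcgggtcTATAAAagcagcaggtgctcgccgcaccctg
Errfi1: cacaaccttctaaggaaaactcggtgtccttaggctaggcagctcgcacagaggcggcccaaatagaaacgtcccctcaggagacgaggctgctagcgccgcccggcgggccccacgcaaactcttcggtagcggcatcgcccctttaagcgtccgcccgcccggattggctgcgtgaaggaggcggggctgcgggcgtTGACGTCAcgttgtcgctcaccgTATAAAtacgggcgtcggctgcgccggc
In Areg the element began 61 bases before the start and TATAAA 31 bases before it, with a further short form 115 bases before. In Errfi1 they began 51 and 28 bases before the start. Of 32851 mouse promoter windows of this length, 1.55% held the full element, 12.4% held TATAAA and 0.119% held both, a pairing looked up after these 2 windows had been seen. Promoter windows were matched for 6 of the 10 genes, 7 windows in all. Those of Hbegf, the other member at least 2-fold lower in BIO cellulates, and of Ereg, Nrg1 and Erbb3 were not analysed here. The full element was in these 2 and not in the earlier Errfi1 start or in the windows of Btc, Tgfa, Egfr and Erbb2. The short form was also found once each for Btc and Erbb2, against 17.8% of all windows. Of the other motifs searched, AP-1 (TGANTCA, 6.75% of all windows) matched in none of the 7. The TCF/LEF letters CTTTGA (13.8%) matched once in the earlier Errfi1 window. The TEAD letters CATTCC (12.6%) matched once in that window and once in Erbb2. The GC box GGGCGG (32.7%) matched in the windows of Areg, Errfi1, Tgfa and Egfr. These matches are descriptions of letters and not of factor binding.

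Areg lies in a row of EGF family genes on chromosome 5, in the order Epgn, Ereg, Areg, Btc with no other protein-coding gene between them in RefSeq, build GRCm38.p6. Of its neighbours only Epgn could be followed. Epgn, which encodes epigen, was measured on all 3 arrays at log2 levels of -1.47 in myoblasts, -1.26 in BIO cellulates and -1.42 in neurogenic cellulates. Its largest ratio was 1.16-fold, inside the width for repeat spots. Ereg, which encodes epiregulin, had levels of -3.90, -2.49 and -2.83, all dim. Both probes of Btc, the betacellulin gene, were dim on all 3 arrays, at levels between -5.86 and -3.16. The dim values of Ereg and Btc were higher on both cellulate arrays, by log2 ratios of 1.41 and 2.17 for BIO cellulates, as was the median of 1.01 over all genes dim on both arrays. No fold is given for them.

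Hbegf encodes heparin-binding EGF-like growth factor. Its probe had intensities of 57.5 units in myoblasts, 8.79 in BIO cellulates and 15.2 in neurogenic cellulates, with only myoblasts well above background. It was at least 2.09-fold lower in BIO cellulates than in myoblasts and at least 1.89-fold lower in neurogenic cellulates. The measured log2 ratios, -2.05 and -1.71, were larger than these bounds because the dim spots lay below the lowest level called well above background. The call at 2-fold was lost in 3 of the 9 other settings that gave a value: the bound was -0.89 on the log2 scale with the percentile over bright probes, -0.85 with spike-in scaling and -0.57 after normexp correction.

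Tgfa, the gene of transforming growth factor alpha, had the most precise ligand measurement, since 1 of its 2 probes was spotted 10 times. Over those 10 spots its log2 level was -1.22 ± 0.10 (SD, 10 spots of 1 array) in myoblasts, -1.23 ± 0.10 in BIO cellulates and -2.11 ± 0.36 in neurogenic cellulates. The spots ranged from -1.44 to -1.10, from -1.38 to -1.07 and from -2.54 to -1.40, so neurogenic cellulates lay below BIO cellulates in every spot, although only 6 of their 10 spots were well above background. The log2 ratio was -0.01 ± 0.04 (SE over spots) for BIO cellulates against myoblasts and -0.89 ± 0.12 for neurogenic against BIO cellulates, a 1.85-fold lower level. The second probe gave 0.05 and -0.58. Under 10 other settings the second ratio stayed negative, from -1.02 to -0.38. The ratio of BIO cellulates to myoblasts depended on the scaling, from -0.73 with median scaling to 0.21 with spike-in scaling. The SE over spots does not hold that shift.

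Nrg1 encodes neuregulin 1, which muscle and nerve both make and which also acts at the nerve-muscle synapse. Of its 3 probes, 1 was measured, in myoblasts alone at a log2 level of -3.20, and its dim cellulate values were -2.99 and -3.00. A level this close to background gives no fold. The 2 other probes were dim on all arrays, at -4.84 to -3.89. Among family ligands that were not members, Nrg4 was measured on all arrays at -2.29, -1.45 and -1.96, or 1.78-fold higher in BIO cellulates than in myoblasts. Egf (10 spots) and Nrg3 were dim throughout, and Nrg2 had no probe that could be named.

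**Figure D2:**
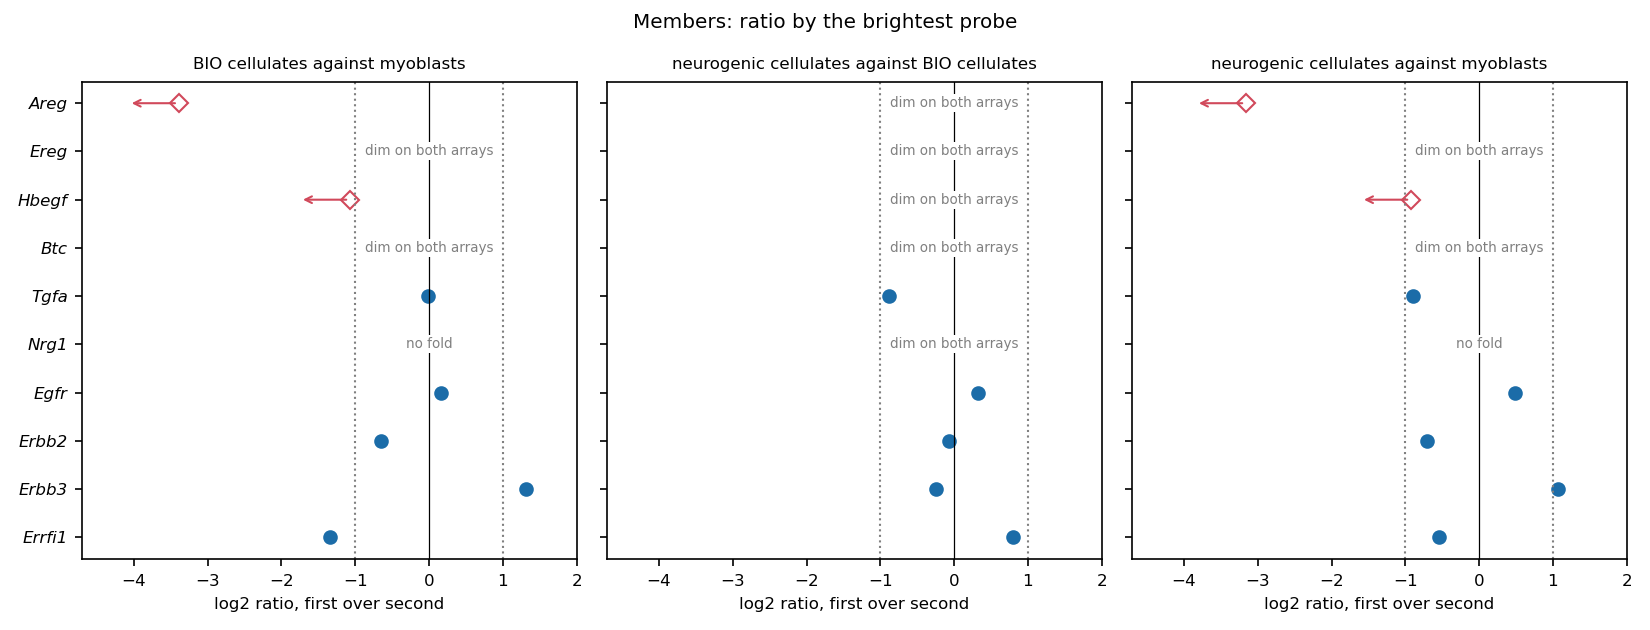
Log2 ratio of each of the 10 genes in the 3 comparisons, by its brightest probe on average. Blue points were measured on both arrays, open diamonds with an arrow are lower bounds on the size of the difference, and dotted lines mark 2-fold. Areg lies at -3.39 and -3.15 in the comparisons with myoblasts, and no gene passes 2-fold between the cellulates.

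The 4 Egfr probes did not give 1 answer. Egfr encodes the EGF receptor itself, and its gene is known to produce shorter transcripts for secreted forms besides the full-length one. By the probe with the highest mean (A_52_P56471) the log2 levels were -1.61, -1.45 and -1.13 in myoblasts, BIO cellulates and neurogenic cellulates, or 1.12-fold and then 1.25-fold higher from one array to the next, within the width of repeat spots. A_52_P674338 had almost the same mean and gave -1.54, -2.09 and -0.70, which is 1.47-fold lower in BIO cellulates than in myoblasts and 2.63-fold higher in neurogenic than in BIO cellulates. A_52_P106259, spotted 10 times, had levels of -3.07 ± 0.25 (SD over spots), -3.49 ± 0.49 and -1.14 ± 0.16, with 10, 0 and 10 of 10 spots well above background. Its neurogenic spots, from -1.48 to -0.97, lay above every spot of the other arrays, whose highest were -2.55 and -2.75. By this probe Egfr was at least 2.99-fold higher in neurogenic than in BIO cellulates and 3.82-fold higher than in myoblasts (log2 ratio 1.93 ± 0.09, SE over spots). The fourth probe, A_51_P392242, also spotted 10 times, was dim on every array at -4.60 ± 0.66, -3.20 ± 0.69 and -2.72 ± 0.21. The probes that differed by over 2-fold between the cellulates, A_52_P106259 and A_52_P674338, are annotated to the same RefSeq transcript, and the other 2 to a second one. Which form each probe detects was not tested. All 3 measured probes were highest in neurogenic cellulates when each array was scaled to its 75th percentile, by amounts from 1.25-fold to at least 2.99-fold over BIO cellulates. With each array scaled to its median the brightest probe turned to -0.25 against myoblasts.

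**Figure D3:**
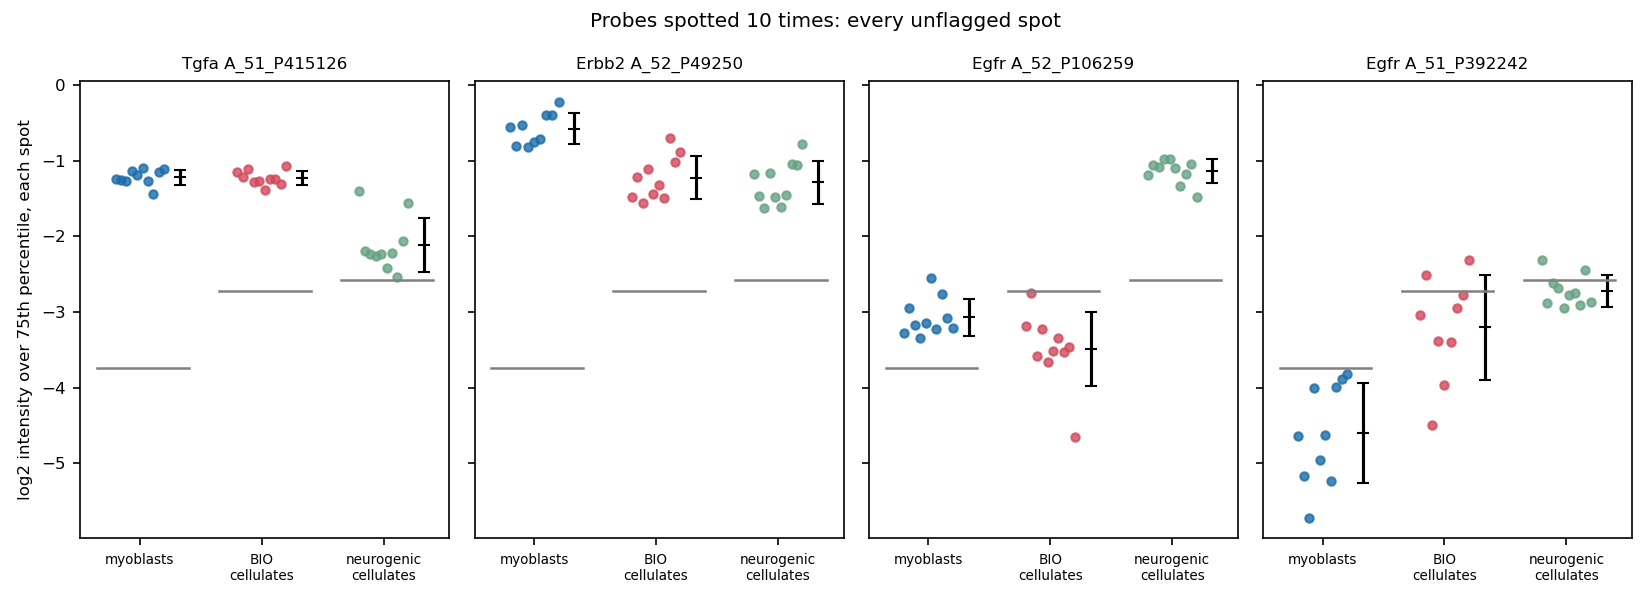
Every unflagged spot of the 4 family probes that were printed 10 times, as log2 intensity over the array's 75th percentile. Black bars show the mean and SD over spots of 1 array, and grey lines the lowest level well above background. Tgfa spots of neurogenic cellulates lie below those of BIO cellulates, and spots of the Egfr probe A_52_P106259 lie higher in neurogenic cellulates than on either other array.

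Erbb2, the partner receptor without a ligand, was lower in both cellulates than in myoblasts. Its brighter probe, spotted 10 times, had levels of -0.58 ± 0.21 (SD over 9 unflagged spots), -1.22 ± 0.29 (10 spots) and -1.29 ± 0.28 (10 spots) in myoblasts, BIO cellulates and neurogenic cellulates. The spot ranges overlapped, from -0.83 to -0.23 in myoblasts against -1.56 to -0.71 in BIO cellulates. The log2 ratio to myoblasts was -0.65 ± 0.11 (SE over spots) for BIO cellulates and -0.71 ± 0.11 for neurogenic cellulates, or 1.57-fold and 1.64-fold lower, and the second probe gave -0.59 and -0.83. Between the cellulates the ratio was -0.06 ± 0.13. The ratio to myoblasts was negative in all 10 other settings, from -1.36 to -0.39 for BIO cellulates, and passed 2-fold only with each array scaled to its median. With spike-in scaling it was -0.43 for BIO cellulates, and the ratio of neurogenic over BIO cellulates was 0.30. The difference between neurogenic cellulates and myoblasts was therefore smaller in that setting.

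Erbb3, the neuregulin receptor with a weak kinase, was the 1 member at least 2-fold higher in both cellulates than in myoblasts by the brightest probe of each gene. The levels were -3.21 in myoblasts, -1.89 in BIO cellulates and -2.14 in neurogenic cellulates, or 2.49-fold higher in BIO cellulates and 2.10-fold higher in neurogenic cellulates than in myoblasts. The intensities behind these levels were 19.6, 31.0 and 35.4 units, close to the lowest values called well above background (13.6, 17.4 and 26.2 units). All 4 probes ran the same way: a second gave log2 ratios of 0.91 and 0.75, another, dim in myoblasts, bounds of 1.74 and 1.56, and the last was dim throughout with measured ratios of 1.67 and 1.54. The ratio changed with the processing. For BIO cellulates it was 0.60 with each array scaled to its median, 0.75 after quantile normalisation and 0.20 after normexp correction, and for neurogenic cellulates 0.34, 0.43 and 0.16, so the direction held while the 2-fold call did not. Genes dim on both arrays also had a positive median, 1.01 and 1.14. Schwann cell markers, whose lineage expresses Erbb3, had about equal summed levels on the 3 arrays (2.02, 2.07 and 1.78). Erbb4, the other neuregulin receptor, was dim on all arrays by all 3 probes.

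Errfi1 encodes the feedback inhibitor that binds the kinase domain of the receptors. Its 1 probe was bright on every array, with intensities of 6083 units in myoblasts, 1524 in BIO cellulates and 3595 in neurogenic cellulates, or log2 levels of 5.07, 3.73 and 4.53. It was 2.53-fold lower in BIO cellulates than in myoblasts, 1.74-fold higher in neurogenic than in BIO cellulates, and 1.46-fold lower in neurogenic cellulates than in myoblasts. Each of these lies outside the width of repeat spots. The first ratio was at least 2-fold in all 10 other settings, from -2.06 to -1.11 on the log2 scale, and the second was positive in all, from 0.79 to 1.16. The third was not steady: it ran from -1.27 with median scaling to 0.03 with spike-in scaling, where its sign turned.

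**Figure D4:**
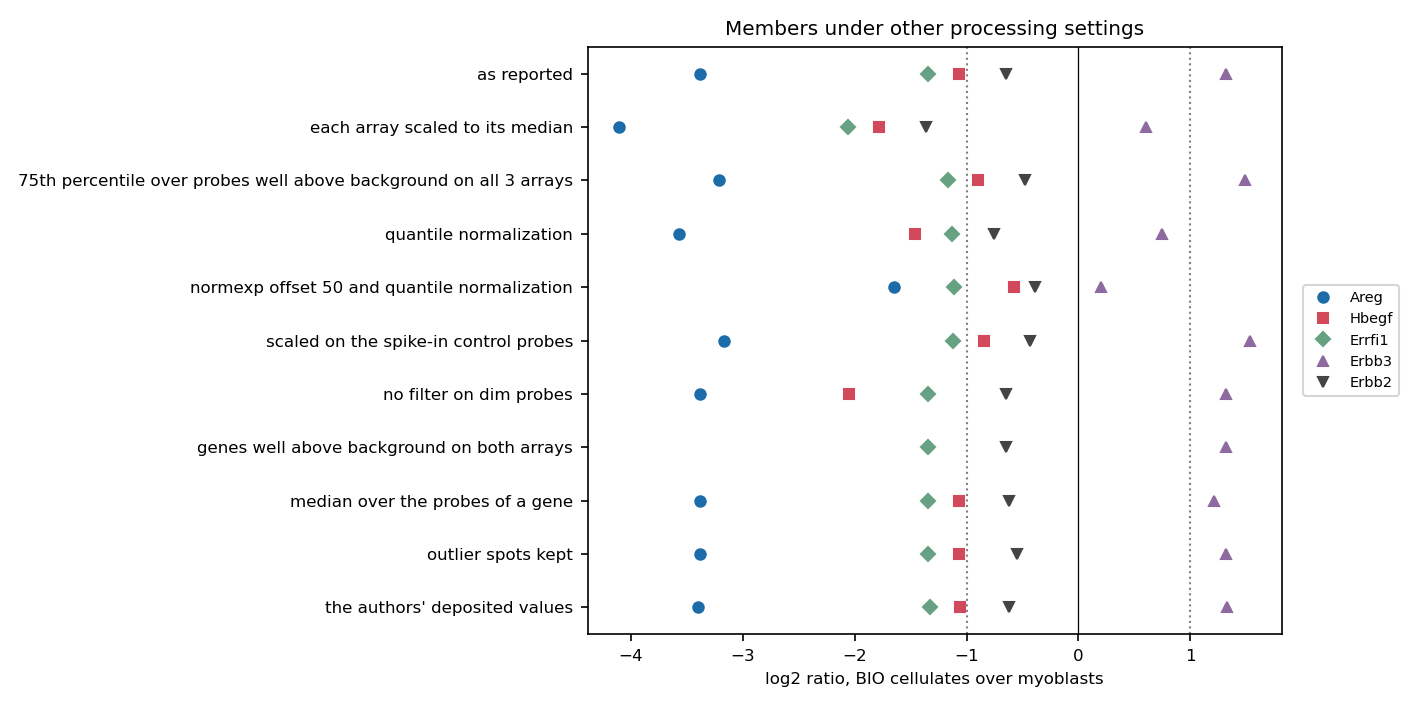
Log2 ratio of BIO cellulates over myoblasts for 5 genes as reported and under 10 other processing settings, with dotted lines at 2-fold. Values of Areg and Hbegf are lower bounds except without the filter on dim probes, and have no point in the setting without bounds. Areg and Errfi1 stay below -1 in every setting that gave a value, and Erbb3 lies between 0.20 and 1.53.

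Other genes that act with the family were taken from 8 lists of the pathway, 86 genes besides the members, of which 80 had a named probe. In BIO cellulates against myoblasts 3 of 65 compared were at least 2-fold higher and 2 lower, and their median log2 ratio was -0.13, beside 0.00 over all genes. In neurogenic against BIO cellulates 3 of 64 were higher and 0 lower, with a median of 0.05 beside -0.17 over all genes. In neurogenic cellulates against myoblasts 8 of 65 were higher and 5 lower, with a median of -0.02 beside -0.06. The percentages given above for all genes apply to these counts too.

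Of 9 genes compared for the shedding of ligands, 1 was at least 2-fold higher and 1 lower in BIO cellulates than in myoblasts. The shares over all genes were 11.2% and 5.99%. In neurogenic cellulates against myoblasts 1 was higher and 2 were lower, beside 12.1% and 10.0%. Between the cellulates 0 passed 2-fold. Adam8, Adam9, Adam15, Rhbdf1, Rhbdf2 and Bace1 stayed below 2-fold in every comparison. Adam12, a metalloprotease gene of fusing muscle cells, had levels of 1.62, 0.09 and -0.37, or 2.88-fold lower in BIO cellulates and 3.96-fold lower in neurogenic cellulates than in myoblasts, and its second probe gave log2 ratios of -1.68 and -2.14. Adam19, which can cut neuregulins, was 1.88-fold and 3.56-fold lower by its brightest probe, though 1 of its other probes gave -0.52 in neurogenic cellulates against myoblasts. Timp3, which encodes an inhibitor of ADAM17, ran the other way with levels of -1.91, 0.14 and 1.13, or 4.12-fold and 8.20-fold higher than in myoblasts. Adam17 itself, the main sheddase of amphiregulin, was dim on all 3 arrays, and no probe of Adam10 could be named.

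Among receptor inhibitors and turnover genes, Errfi1 was the 1 of 14 at least 2-fold lower in BIO cellulates, and 0 were higher. The shares over all genes were 5.99% lower and 11.2% higher. Lrig1, a membrane protein that promotes loss of the receptors, was 1.97-fold lower in BIO cellulates than in myoblasts and 1.45-fold higher in neurogenic than in BIO cellulates, with levels of 2.40, 1.42 and 1.95. Rnf41, a ligase that acts on ERBB3, was 2.13-fold lower in neurogenic cellulates than in myoblasts by its brightest probe, and its other measured probes gave log2 ratios of -0.70 and -0.58. Adaptors and the RAS-ERK cascade held no gene past 2-fold among 15 compared in BIO cellulates. Map2k1, the gene of the kinase MEK1, had levels of 4.74, 5.61 and 6.13, which made it 2.62-fold higher in neurogenic cellulates than in myoblasts.

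ERK feedback inhibitors and ERK-induced transcripts had positive median log2 ratios of neurogenic over BIO cellulates, 0.41 over 7 genes and 0.32 over 12, beside -0.17 over all genes, though 0 and 1 of them passed 2-fold. Etv5, a transcription factor gene that ERK signalling induces, had levels of 0.44, 0.65 and 1.88 and was 2.34-fold higher in neurogenic than in BIO cellulates. Its relative Etv4 was 1.95-fold higher, and the phosphatase gene Dusp6, which switches ERK off, 1.81-fold. Against myoblasts, Etv5 was 2.71-fold, Etv4 2.10-fold, Dusp6 2.56-fold and Myc 2.21-fold higher in neurogenic cellulates, and a dimmer Myc probe gave a log2 ratio of 0.47. The Sprouty gene Spry2 was 2.08-fold higher in BIO cellulates and 2.76-fold higher in neurogenic cellulates than in myoblasts, and its second probe gave larger log2 ratios of 2.45 and 2.21. Other genes of these 2 lists ran the other way. Spry1 was 1.45-fold lower in neurogenic than in BIO cellulates and 1.89-fold lower than in myoblasts. Plaur was 1.32-fold and 1.83-fold lower by its brightest probe, though its second gave log2 ratios of 0.48 and 0.22. Ier3 was 1.42-fold lower in neurogenic than in BIO cellulates. Egr3 was at least 2.14-fold higher in BIO cellulates than in myoblasts by a spot near background, and Fos, Egr1 and Egr2 were dim on all arrays. Against myoblasts the median of ERK feedback inhibitors in neurogenic cellulates was 0.73, and median scaling brought it to about 0.

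Among ligand partners at the cell surface, the heparan sulfate proteoglycan gene Sdc1 was 2.50-fold lower in BIO cellulates and 2.99-fold lower in neurogenic cellulates than in myoblasts. Cd9, a tetraspanin that associates with the precursor of heparin-binding EGF-like growth factor, was measured in neurogenic cellulates alone, at least 2.69-fold above BIO cellulates and at least 5.44-fold above myoblasts. Cd82, a tetraspanin tied to EGF receptor internalisation, was 2.10-fold higher in neurogenic than in BIO cellulates. Cd44 was 2.01-fold lower in neurogenic cellulates than in myoblasts by its brightest probe, while its other probes gave log2 ratios of 0.13 and -1.36.

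**Figure D5:**
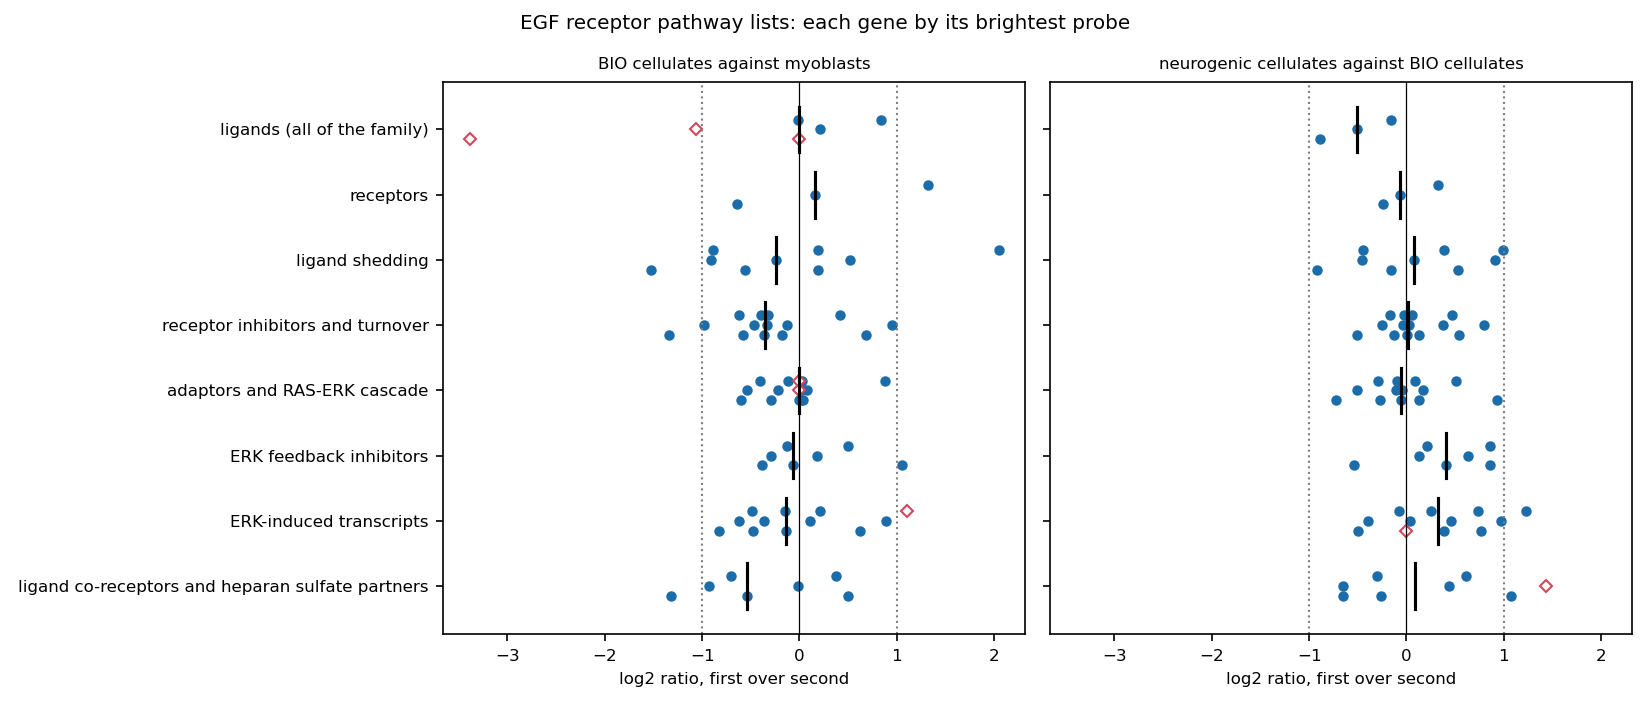
Log2 ratio of each gene of the 8 pathway lists, members included, by its brightest probe, for BIO cellulates over myoblasts (left) and neurogenic over BIO cellulates (right). Blue points were measured on both arrays, open diamonds are lower bounds (0 where no fold could be given), black bars are list medians and dotted lines mark 2-fold. The ERK feedback and ERK-induced lists have medians of 0.41 and 0.32 on the right.

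For the 2 members measured on all arrays with a range of at least 1 log2 unit, the genes of most similar course over the 3 arrays were found by the Euclidean distance between centred log2 levels, among 10665 other genes measured on all 3. Closest to Errfi1 were Sema3a (0.0038), Calml4 (0.019) and Notch3 (0.087), and 39 genes lay within 0.25. Closest to Erbb3 were Zfhx2 (0.0072), Eng (0.011) and Hipk2 (0.013), with 354 genes within 0.25. Each of these courses rests on 3 arrays.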

How the data were processed

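Per the labels, 200 ng of total RNA per sample was amplified and labelled with Cy3, and 1 one-colour Agilent mouse array was run for each group. Per the file headers, the authors used Feature Extraction 10.7.3.1 on array design 014868 (header build mm9) to write each spot's processed intensity, which is background-subtracted, and median pixel intensities. The 3 arrays lay on 1 slide. The authors' deposited table is on the log2 scale: the myoblast column equals the log2 intensity of the spots, and the BIO and neurogenic columns equal it plus 0.67 and 0.23. Its column medians are 7.42, 7.77 and 7.88 in that order, it is not centred by gene, and how those constants were chosen is not given in the sources used here.

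Control and outlier spots were left out and the spots of a probe averaged as log2 intensity minus the log2 75th percentile. Probes were named through RefSeq accessions (26909 of 41174), and each gene was represented by its probe of highest mean level. Calls are differences of at least 2-fold, and genes whose brightest probe was dim on an array where another probe was not (69, 45 and 82 in the 3 comparisons) were left out. There is no test, since groups hold 1 array each, and precision is limited by that number. The calling step was tested on simulated data. Normexp correction used limma 3.58.1 in R 4.3.3, and the rest Python 3.11.15. The members, pathway lists and settings were chosen with earlier results of these data known. Named genes are the members and, from each list, up to 5 with the largest fold of at least 2 in a comparison. Others named for their role, or with folds below 2, were chosen after their values were seen. Some genes of the marker lists are not reported here by name.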

Additional observations from a re-analysis of the deposited data

How the results depend on the processing

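Each value rests on 1 array, so no replicate could be left out. No paired analysis was possible because each group had 1 array. Scaling moved the median log2 ratio of all genes for BIO cellulates against myoblasts by -0.65 (median scaling) and by 0.18 (spike-in scaling). In that comparison the count of members at least 2-fold higher, 1 as reported, was 0 with median scaling, quantile normalisation and normexp correction and 3 without the filter on dim probes. The count lower, 3 as reported, was 1 among genes measured on both arrays. In neurogenic against BIO cellulates the count higher, 0 as reported, was 1 with spike-in scaling and with a 1.5-fold threshold, and the count lower, also 0, was 1 after quantile normalisation and with the 1.5-fold threshold. In neurogenic cellulates against myoblasts the count higher, 1 as reported, was 0 with median scaling, quantile normalisation and normexp correction, 2 with spike-in scaling and 3 without the filter. The count lower, 1 as reported, was 5 with median scaling, 3 after quantile normalisation, 2 without the filter, 0 among genes measured on both arrays and 4 at 1.5-fold. Of the recomputed counts 47 stayed within 1.5 times the reported count and 19 did not. No member changed sign in the comparison in which it passed 2-fold, in any setting that gave it a value. Signal near background limits Erbb3, Hbegf and Nrg1.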
